A study of Mus musculus with 2 samples.

Results

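The regions described here are CTCF binding peaks inside the introns of very long genes. A peak was a member when its summit lay within a protein-coding gene of 300 kb or more on chromosomes 1 to 19, outside every annotated exon and more than 1 kb from every annotated transcript start. The list of peaks was the authors' optimal list, 1 of the 2 deposited lists thresholded on the irreproducible discovery rate (IDR). Of its 68603 peaks, 66972 lay on the autosomes and 5869 met the rule (8.76% of the autosomal peaks). They came from 541 of 20807 autosomal protein-coding genes, of which 526 held at least 1 member and 15 held none. No filter on signal was applied, so every count below covers all 5869 members unless a smaller number is given.

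CTCF was mapped by chromatin immunoprecipitation and sequencing (ChIP-seq) in midbrain tissue of mice of the inbred B6NCrl strain at postnatal day 0. The 1 group had 2 replicates, no treatment and no recorded sex, and a control alignment was used in peak calling. Since the labels give both replicates 1 biosample and 1 donor record, differences between them may be technical. Read depth is not given in the peak lists, so the intervals given for shares cover counting error over peaks only. No other cell type, age or condition was measured, and whole tissue cannot show which cells of the midbrain carried a peak. Peaks are not independent of each other, so each difference was computed within each of the 19 autosomes and tested over them by flipping signs (exact sign-flip test, two-sided). That test has a smallest possible p of 3.81e-06, it speaks of these 2 libraries only, and its p-values were adjusted by the Benjamini-Hochberg method over 10 tests with a threshold of 0.05.

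CTCF reads a long, asymmetric DNA motif with a row of zinc fingers. Together with cohesin, a ring-shaped complex that extrudes loops of chromatin, it sets where loops end, and cohesin is preferentially halted at pairs of CTCF motifs that point towards each other (convergent pairs). In neurons the longest genes encode many adhesion proteins, ion channels and synaptic scaffolds, and CTCF sites inside gene bodies are known in some genes to affect promoter choice, transcript elongation and splicing.

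The motif instances of the strongest members are shown first, because the share of members with a motif and the direction of the motif recur below. Each line gives 40 bases, read 5′ to 3′ on the strand of the match, with the 20-base motif window in capitals and 10 bases to each side in lower case. The sequence is the mm10 reference (GRCm38.p6), not a read of these mice. Of the 10 members of highest signal, 9 are shown, named by their genes, with the signal highest in the first and lowest in the last.
Lsamp: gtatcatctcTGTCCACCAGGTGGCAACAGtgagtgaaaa
Ksr2: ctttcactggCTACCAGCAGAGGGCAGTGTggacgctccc
Gm20388: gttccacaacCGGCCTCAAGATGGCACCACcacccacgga
Palld: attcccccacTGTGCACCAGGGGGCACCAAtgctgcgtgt
Cacna1e: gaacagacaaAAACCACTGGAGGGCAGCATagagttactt
Aff3: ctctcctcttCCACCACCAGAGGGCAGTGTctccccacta
Myo16: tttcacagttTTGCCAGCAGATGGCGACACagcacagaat
Dis3l2: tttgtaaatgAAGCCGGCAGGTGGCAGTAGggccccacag
Grik4: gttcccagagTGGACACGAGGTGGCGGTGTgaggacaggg
For contrast, the strongest of the 7 members of Lrp1b, a gene with few and weak members, read as follows.
Lrp1b: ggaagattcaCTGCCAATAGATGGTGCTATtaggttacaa

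The strongest member of all was at chr16:42164966-42165339 in Lsamp, which encodes a GPI-anchored adhesion protein of the IgLON family. Its signal value was 584 in the optimal list, 289 in replicate 1 and 296 in replicate 2, and its motif (42165118 to 42165137, minus strand) faced against the direction of the gene. It lay 2181 kb from the 5′ end of a gene of 2197 kb, at 99.2% of the gene body. The next was at chr5:117505171-117505565 in Ksr2, a scaffold of the RAF to MEK kinase cascade, with a signal of 577 and with 291 in each replicate. Those of Palld (chr8:61539857-61540179, signal 543), Aff3 (chr1:38185536-38185862, 536), Dis3l2 (chr1:87042104-87042424, 519) and Grik4 (chr9:42550196-42550519, 518) also lay close to the 3′ end of their gene, at 92.7%, 98.3%, 97.7% and 92.4% of the body. Palld encodes an actin-binding protein, Aff3 a nuclear protein of the AF4 family, Dis3l2 an exoribonuclease and Grik4 a kainate receptor subunit. The members of Cacna1e, a voltage-gated calcium channel gene (chr1:154786209-154786627, 543), Myo16, an unconventional myosin gene (chr8:10438803-10439150, 527), and Gm20388 (chr8:121113262-121113676, 545) lay at 19.9%, 59.3% and 27.1%. Of the 10 strongest members, which were chosen by their signal, 6 fell in the last 10% of the gene body, all 10 had a motif and 4 had it on the strand of the gene.

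A few gene models are not ordinary long genes, and they touch the counts. Gm20388 (chr8:119910841-124345722) spans 4435 kb, contains 71 other protein-coding genes, rests on 1 transcript and held 253 members. Fgfr2 (chr7:130162451-133123350) spans 2961 kb in this annotation because of 1 of its 27 transcripts, while the next longest is 104 kb. That span contains 29 other protein-coding genes and held 106 members. The predicted genes Gm42416, Gm37013 and Gm37388 span 887, 863 and 857 kb and contain 36, 33 and 31 other protein-coding genes. Their spans are nested, and all 3 held the same 3 members. Without these 5 genes the number of members was 5556, and each tested result kept its direction and its side of the threshold, except that the difference between convergent and divergent pairs then passed. In all, 413 members (7.04%) also lay inside another gene, and 71 lay in more than 1 long gene and are counted once for each gene wherever values are given by gene or along the gene body.

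Intronic peaks were sparser in long genes than in shorter ones. The long genes held 20.1 members per Mb of sequence that could meet the rule (292 Mb of intronic sequence away from exons and starts), against 34.6 per Mb for the 18484 peaks chosen by the same rule in protein-coding genes under 300 kb. The density was lower in 19 of 19 autosomes, with a mean log2 ratio of −0.79 ± 0.28 (SD over 19 autosomes), which is 0.579-fold (exact sign-flip test, p = 3.81e-06, adjusted p = 1.91e-05). Members per Mb ran from 12.9 on chromosome 15 to 28.1 on chromosome 5, and the density in shorter genes from 26.8 on chromosome 3 to 42.4 on chromosome 11, so the ranges met although each autosome had the same order. Sequence outside all genes held 18.7 peaks per Mb. Above 30 kb the density decreased step by step with length. Introns of genes under 10 kb held 43.8 peaks per Mb, those of 10 to 30 kb 44.3, of 30 to 100 kb 36.2 and of 100 to 300 kb 30.5. Genes of 300 to 500 kb (323 genes), 500 to 1000 kb (163) and 1000 kb or more (55) held 23.1, 18.5 and 17.6 per Mb. The class of 1000 kb or more includes the wide spans of Gm20388 and Fgfr2, at 70.4 and 41.4 members per Mb. Its density without them was not computed. Just outside the threshold, 164 genes of 250 to 300 kb held 29.0 per Mb, and just inside it 118 genes of 300 to 350 kb held 23.1. The genes nearest to the threshold were Kcnq3, a potassium channel gene of 300.26 kb, and Jazf1 of 299.83 kb, which was left out.

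**Figure D1:**
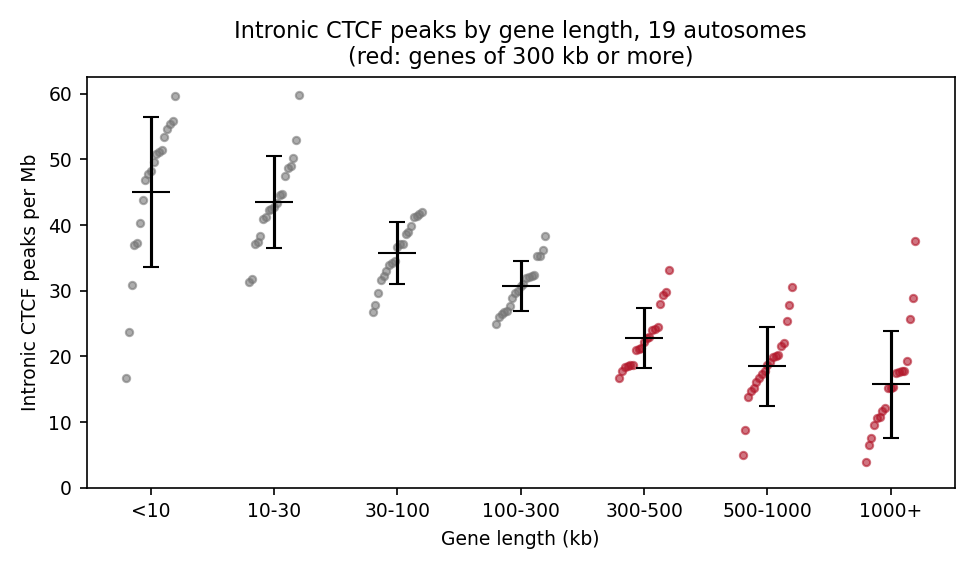
Intronic CTCF peaks per Mb of eligible intronic sequence (y axis) by length of the protein-coding gene in kb (x axis), with 1 point per autosome spread sideways in order of value, and the mean and SD over the 19 autosomes as bars. The mean was 45.0 per Mb in genes under 10 kb and 15.8 in genes of 1000 kb or more, and the 3 red classes are the genes that hold the members.

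The base composition of the genes moved with this difference. The GC content of the eligible sequence was 44.5% in genes under 10 kb, 42.8% in those of 100 to 300 kb, 41.6% in those of 300 to 500 kb and 39.9% in those of 1000 kb or more. Its repeat content had no such order, at 26.9% under 10 kb, 31.0% from 10 to 30 kb, 30.5% from 30 to 100 kb, 27.9% from 100 to 300 kb and 29.2% at 1000 kb or more. Among the long genes, members per Mb followed GC content with a Spearman correlation of 0.81 over 541 genes, and gene length with one of −0.16. These values describe genes that share libraries and neighbourhoods, so they carry no p-value. Below 38% GC, 98 long genes held 7.21 members per Mb and 133 genes of 100 to 300 kb held 13.7. From 40 to 42% the values were 18.7 and 21.3, and from 42 to 44% they were 26.8 and 29.6. From 44 to 46% they were 37.8 and 36.9, and at 46% or more 56.6 and 53.4. In these 2 classes the long genes, wide spans included, were thus not the sparser ones. The class of 46% or more includes Gm20388 (50.4% GC, 70.4 members per Mb), which gave 253 of its 1069 gene and member pairs. The density of that class without Gm20388 was not computed. Given the density of genes of 100 to 300 kb in the same GC class, 6854 gene and member pairs were expected in the long genes and 5943 were counted, a ratio of 0.867. The log2 ratio was −0.23 ± 0.17 over 19 autosomes, lower in 17 of them (exact sign-flip test, p = 3.05e-05, adjusted p = 1.02e-04), a comparison added after the values were seen.

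**Figure D2:**
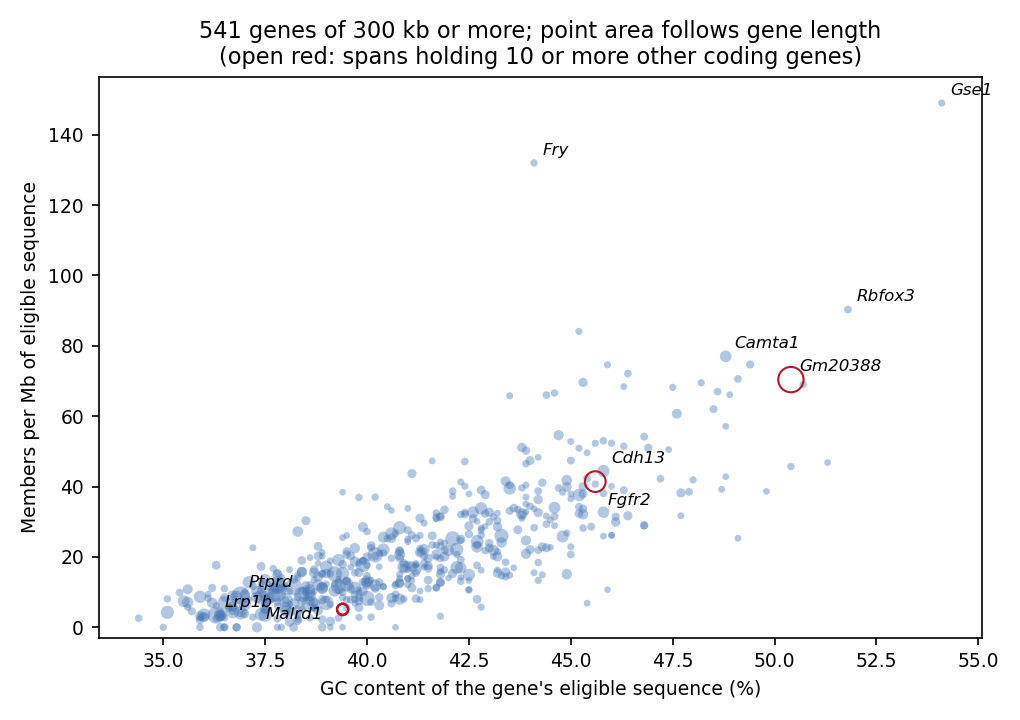
Members per Mb of eligible sequence (y axis) against the GC content of that sequence in percent (x axis) for the 541 long genes, with 1 point per gene, point area following gene length and open red circles for the 5 genes that contain 10 or more other protein-coding genes. Density and GC content went together (Spearman 0.81), and Gse1 and Fry stand above the other genes at 149 and 132 members per Mb.

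Genes differed widely in their number of members. The median gene held 8 members (quartiles 4 and 14), or 17.1 per Mb (quartiles 9.34 and 29.6). The densest was Gse1, the gene of a chromatin-associated coiled-coil protein (chr8:120228456-120581390), with 49 members in 353 kb, 149 per Mb and a GC content of 54.1%. It lies inside the span of Gm20388, so its members count for both genes. Fry, which encodes a large scaffold of NDR kinases (chr5:150118645-150497753), held 43 members in 379 kb, 132 per Mb, at a GC content of 44.1%. Long genes of 44 to 46% GC held 37.8 per Mb as a class and those of 46% or more held 56.6, so both Fry and Gse1 were well above their class. Rbfox3, whose splicing factor product is the neuronal marker NeuN, held 36 members at 90.3 per Mb and 51.8% GC. Mtus2, the gene of a microtubule-associated protein, held 28 at 84.1 per Mb and 45.2% GC. Camta1, a calmodulin-binding transcription activator gene, held 68 at 77.0 per Mb and 48.8% GC, the most of any gene that is not one of the wide spans.

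Several genes around 1000 kb long also held many members. Cdh13, encoding a GPI-anchored cadherin, held 45 members at 44.4 per Mb. Asic2, an acid-sensing ion channel gene, held 40 at 37.6 per Mb, and Auts2, encoding a nuclear regulator of neural development, held 39 at 39.5 per Mb. Rora, a nuclear receptor gene of 734 kb, and Kalrn, a guanine exchange factor gene of 604 kb, held 39 each, at 54.6 and 69.6 per Mb. All 5 lay above the third quartile of the long genes.

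Apart from the wide spans, most of the longest genes were sparse. Ptprd, a receptor tyrosine phosphatase gene (chr4:75941238-78211961), held 20 members in 2271 kb, 9.02 per Mb. Cntnap2, encoding a neurexin-related adhesion protein (chr6:45059357-47304213), held 21 at 9.82 per Mb, and Lsamp (chr16:39984361-42181679) held 26 at 12 per Mb. Macrod2, an ADP-ribosyl hydrolase gene, held 13 at 6.66 per Mb, and Dlg2, encoding the postsynaptic scaffold PSD-93, held 21 at 11.5 per Mb. All 5 fell below the median of 17.1 per Mb, and their GC content was between 36.9% in Ptprd and 38.6% in Macrod2. Csmd1, a gene of complement control domains, held 33 at 20.6 per Mb and 40.2% GC, and Nrxn3, a presynaptic adhesion gene, held 24 at 15.2 per Mb and 39.2% GC.

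Lrp1b, a gene of the LDL receptor family (chr2:40595246-42653624), was the sparsest of the 10 longest genes. It held 7 members in 2058 kb, 3.48 per Mb at 36.3% GC, with signal values of 31.4, 76.8, 40.6, 31.0, 36.3, 23.8 and 38.5 from its 5′ to its 3′ end. In replicate 1 the same members had 18.1, 43.9, 27.2, 17.8, 20.3, 19.8 and 27.8, and in replicate 2 they had 13.4, 35.6, 12.3, 13.8, 14.2, 4.73 and 9.52. The second from the 5′ end was the highest in both replicates, and all but that one lay below the median signal of the members, which was 63.1. Of the 7, 5 had a motif, including the one whose sequence is printed above.

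Members were unevenly placed within these genes. The body of each gene was divided into 5 equal parts from 5′ to 3′. In Cntnap2, 14 of 21 members lay in the last part and none in the part before it. The 4 highest, with signals of 373, 354, 314 and 183, all lay from 84.7% of the body onward. The first 3 of these had 206, 170 and 151 in replicate 1 and 168, 185 and 162 in replicate 2, so their order was not the same in both. In Macrod2, 6 members lay in the first part, 6 in the last and none in the middle part or the one after it. A stretch of 765 kb there had no peak of any kind. In Nrxn3, 11 of 24 members lay in the middle part and none in the last. Dlg2 had 6 members in the last part, with a cluster of 3 at 1617, 1626 and 1629 kb from its start (signals 346, 383 and 298). In the optimal list, Lsamp ended with 3 members at 2181, 2186 and 2188 kb, with signals of 584, 437 and 364, of which the first had its motif against the gene and the other two along it. Replicate 1 gave 289, 235 and 188 for these 3 and replicate 2 gave 296, 202 and 176, in the same order.

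**Figure D3:**
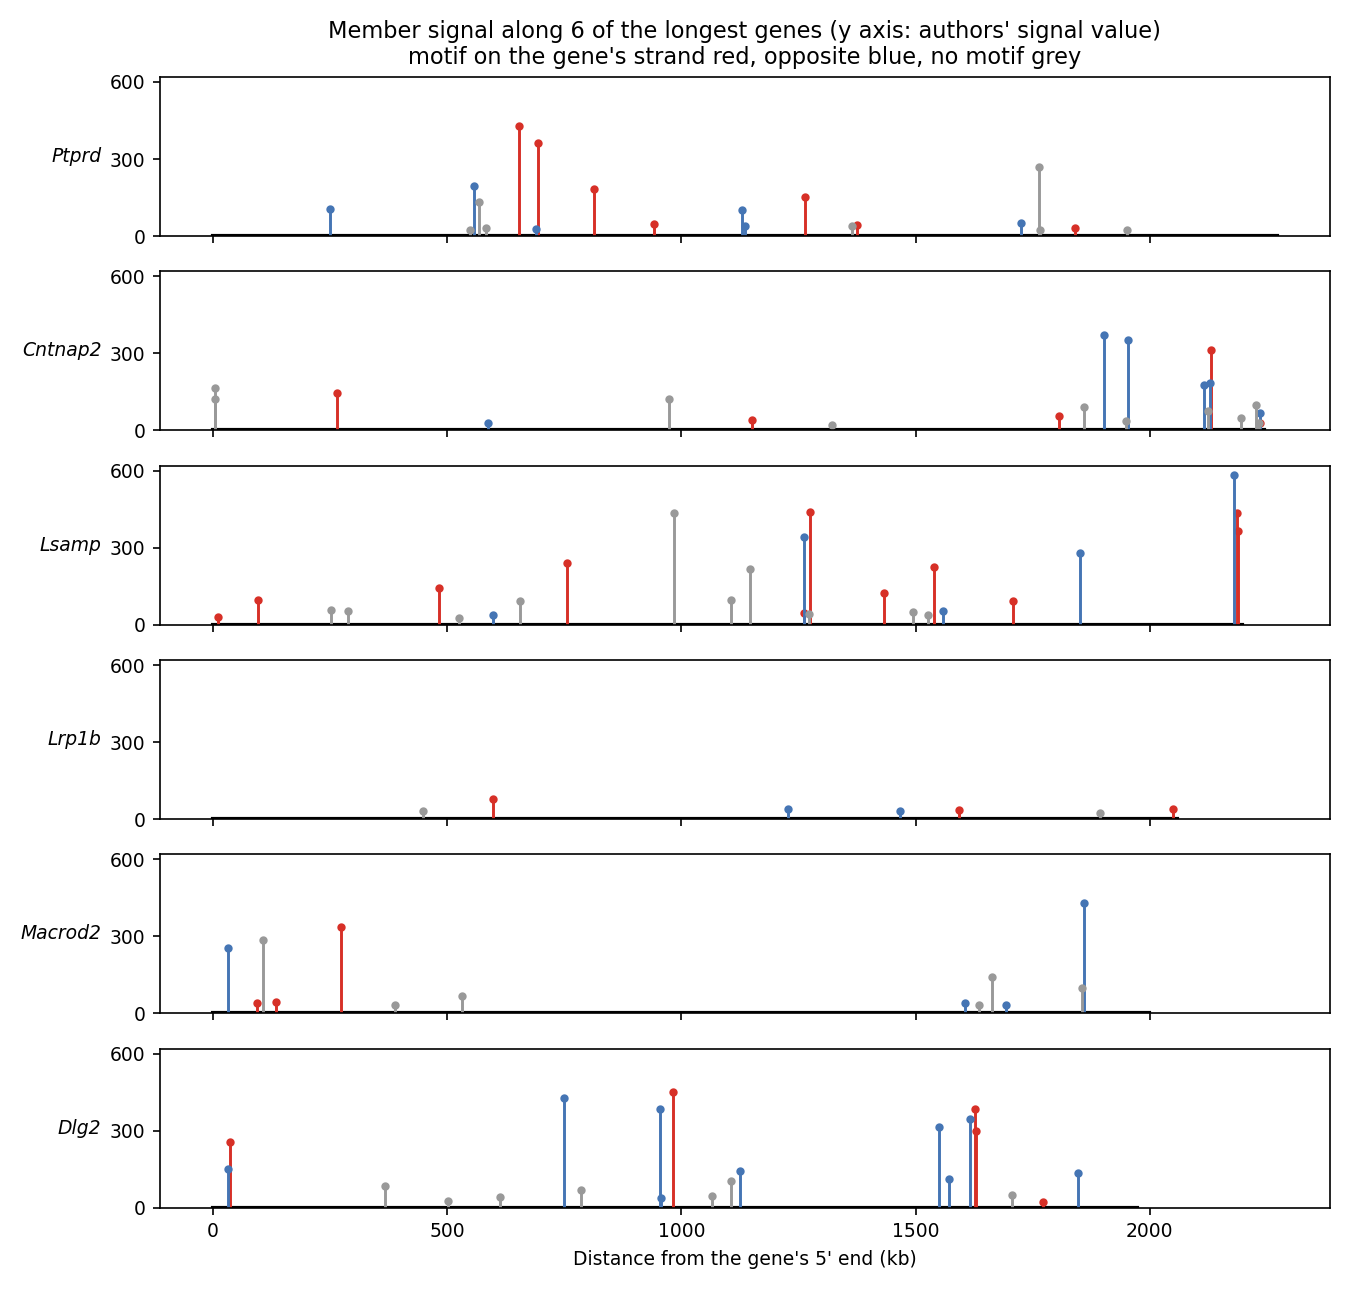
Signal value of each member (y axis, the authors' value in the optimal list) by distance from the gene's 5′ end in kb (x axis) in 6 of the longest genes, with motifs on the gene's strand in red, on the opposite strand in blue, and members without a motif in grey. Lrp1b has 7 members of at most 76.8, while Lsamp, Dlg2 and Macrod2 reach 584, 453 and 431.

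The 15 long genes without any member were Malrd1 (729 kb), B3galt1 (557), Skint5 (522), Cpq (511), Kcnh7 (491), Skint6 (482), Dok6 (477), Spock3 (406), Cntn6 (371), Gtdc1 (363), Epha5 (363), Gucy1a2 (362), Ube2e2 (321), Prkd1 (308) and Dnah7b (307). Among them Kcnh7 encodes a potassium channel, Cntn6 a contactin adhesion protein and Epha5 an ephrin receptor of axon guidance. The GC content of these genes ran from 35.0% in Epha5 to 40.7% in Ube2e2. B3galt1, Dok6, Spock3, Epha5, Gucy1a2 and Dnah7b had an optimal peak within 1 kb of one of their own starts. Malrd1, Cntn6 and Ube2e2 had no such peak but had 1 in an exon, and Skint5, Cpq, Kcnh7, Skint6, Gtdc1 and Prkd1 had no optimal peak of any kind. A count of 0 here means that no peak passed the authors' IDR threshold, not that CTCF was absent. Of all long genes, 397 (73.4%) had an optimal peak that close to a start of their own. No such share is given here for shorter genes, and genes with more annotated starts had more places for such a peak. The longest stretch of a gene without any peak had a median of 166 kb over genes and was 915 kb at most, in Erbb4, a neuregulin receptor gene of 1076 kb with 9 members. Erbb4 is named for that stretch, after its values were seen.

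Gene lists by function differed in density, and each is given beside the median of 17.1 per Mb over all long genes. No list was tested. Of 12 genes for neurexins, contactins and their partners, 0 lay above that median. Their median was 9.40 per Mb, from 0 in Cntn6 to 15.2 in Nrxn3, and the GC content over the list was 38.1%. Of 21 genes for transcription factors and RNA-binding proteins, 17 lay above it. Their median was 32.0 per Mb, from 5.60 in Sox6 to 90.3 in Rbfox3, at 43.2% GC. Besides Camta1, Auts2 and Rora, this list holds Rbfox1, a neuronal splicing factor gene with 38 members at 25.2 per Mb, and Celf2, an RNA-binding protein gene with 12 at 13.1 per Mb. The order of these 2 lists in density was also their order in GC content. Medians of the other lists did not all keep that order. IgLON and other immunoglobulin adhesion genes had a median of 32.4 per Mb at 40.5% GC, and glutamate receptor genes 8.49 at 39.6%. In members per Mb pooled over a list, these stood at 22.2 and 12.5. The pooled values of the first 2 lists were 9.63 for neurexins, contactins and their partners and 32.9 for transcription factors and RNA-binding proteins.

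The medians of the other lists ran from 8.49 to 32.4 per Mb. IgLON and other immunoglobulin adhesion genes had a median of 32.4 per Mb with 8 of 13 above the median of all long genes, from 6.96 in Mdga2 to 39.9 in Tmem132d. Sdk1 and Ntm, adhesion genes of this list, had 32 and 31 members. Cadherins, protocadherins and catenins had a median of 11.3 with 4 of 12 above, and ranged from Cdh8, with 1 member and 2.70 per Mb, to Cdh4, with 33 members and 74.7 per Mb. Receptor tyrosine phosphatases had a median of 18.5 with 3 of 6 above, led by Ptprn2 with 32 members at 41.8 per Mb and Ptprg with 27 at 41.5. Glutamate receptor genes had a median of 8.49 with 4 of 13 above. In that list Grik4 had 16 members at 38.5 per Mb and Grin2b, an NMDA receptor subunit gene, had 13 at 30.3. Potassium and calcium channel genes had a median of 18.2 with 9 of 18 above, from 0 in Kcnh7 to 52.3 in Kcnip1. Axon guidance genes had a median of 11.5 with 5 of 17 above, with Epha3 at 1 member and Slit3, a secreted repellent gene, at 18.

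Genes for synaptic scaffolds and transmitter release had a median of 20.3 with 9 of 15 above, from 3.41 in Pclo, the presynaptic scaffold gene of piccolo, to 70.6 in Shank2, a postsynaptic scaffold gene. Growth factor signalling genes had a median of 15.6 with 4 of 9 above, from 3.68 in Nrg3, a neuregulin gene, to 37.9 in Ntrk2, the BDNF receptor gene. Phosphodiesterase genes had a median of 19.9 with 4 of 5 above, from Pde1c at 8.50 to Pde10a at 42.3. Genes of known fragile sites, which break under replication stress, had a median of 11.5 with 4 of 11 above, from Lrp1b at 3.48 to Wwox, an oxidoreductase gene, at 32.7. Genes of very different density thus shared a list in each of these 4.

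Along the gene body the 3′ part was the denser. Members per Mb in the 5 equal parts of the body, from 5′ to 3′, were 20.5, 17.5, 19.5, 20.1 and 23.3. The last part exceeded the middle 3 parts, which together held 19.1 per Mb, by 0.29 ± 0.24 on the log2 scale (1.22-fold, higher in 16 of 19 autosomes, exact sign-flip test, p = 1.41e-04, adjusted p = 3.53e-04). In genes of 500 kb or more the log2 difference was 0.19 and did not pass (exact sign-flip test, adjusted p = 0.228). For the first part the log2 difference was 0.08 ± 0.31, higher in 12 of 19 autosomes, and did not pass (exact sign-flip test, p = 0.280, adjusted p = 0.311). The GC content of the eligible sequence in the 5 parts was 40.7%, 40.5%, 40.6%, 40.8% and 41.3%, highest where the members were densest. Its part in the difference was not tested.

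Distance in kb shows the ends more sharply than equal parts do. Within 10 kb of the gene's 5′ end there were 192 members at 44.4 per Mb, and from 10 to 25 kb only 18.6 per Mb, close to the 18.8 found from 100 to 200 kb. Counted as the first 50 kb against the rest, the 5′ end was the denser by 0.24 on the log2 scale (exact sign-flip test, adjusted p = 0.00381), and with all sequence within 5 kb of a start removed the first of the 5 parts stood at −0.07 (adjusted p = 0.512). The 3′ end was broader, at 30.5 per Mb within 10 kb, 32.6 from 10 to 25 kb, 25.2 from 25 to 50 kb, 22.5 from 50 to 100 kb and 21.2 from 100 to 200 kb.

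**Figure D4:**
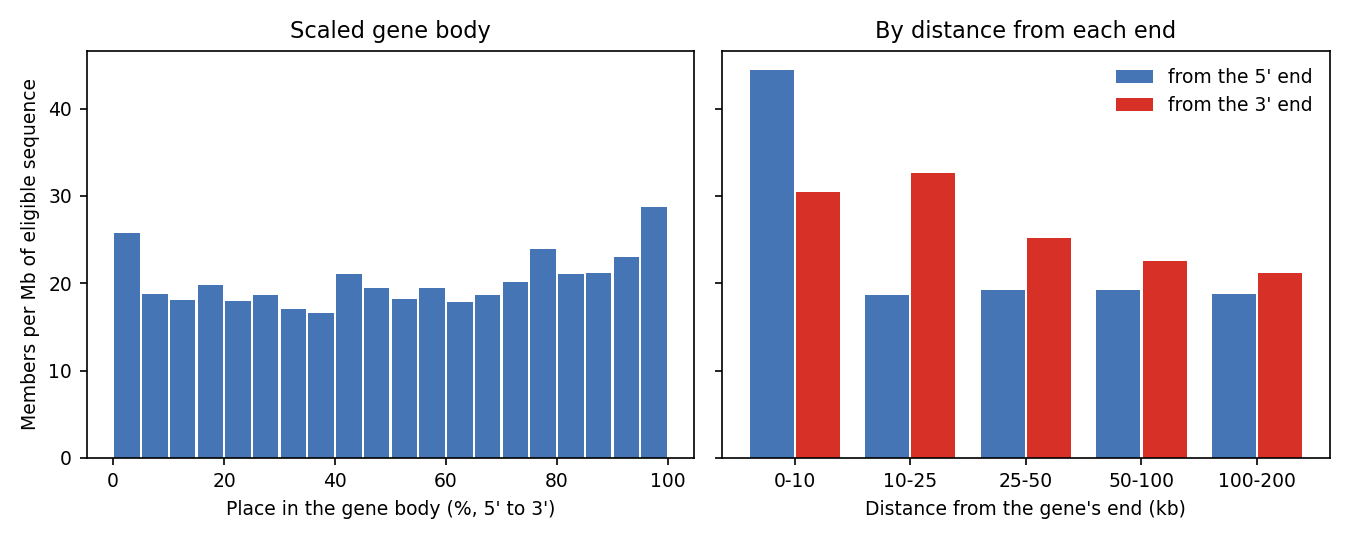
Members per Mb of eligible sequence (y axis of both panels) in 20 equal parts of the scaled gene body from 5′ to 3′ (left, in percent) and by distance in kb from the 5′ end (blue) and the 3′ end (red) of the gene (right), over all long genes. The first and the last bar on the left are at 25.7 and 28.7, and on the right the 5′ side goes from 44.4 within 10 kb to 18.6 in the next class, while the 3′ side is still at 25.2 from 25 to 50 kb.

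Strong members were placed further towards the 3′ end than members as a whole. Of the members in the top 10% of signal among all autosomal peaks, counted by gene, 134 of 457 (29.3%) lay in the last 20% of the body and 86 (18.8%) in its last 10%. Of all 5943 pairs of a gene and a member, 22.2% lay in the last 20% and 11.9% in the last 10%. Per Mb, these strong members stood at 2.37 in the last 20% and 1.35 in the middle, and the last 20% was the higher in 14 of 19 autosomes. This split was made after the values were seen and has no test. The median signal in the 5 parts was 64.2, 65.0, 57.3, 59.1 and 72.0.

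Members also lay nearer to exons than the sequence available to them. Within 1 kb of an exon there were 29.5 members per Mb, from 1 to 5 kb 25.3, from 5 to 20 kb 18.8, from 20 to 50 kb 17.2 and beyond 50 kb 13.4. The nearest class was above the farthest in 18 of 19 autosomes. By order of intron the densities were close, at 21.0 per Mb in first introns, 19.9 in middle introns and 20.2 in last introns. Within autosomes first introns stood at −0.17 ± 0.46 against later ones on the log2 scale, lower in 13 of 19 and higher in 6, so the pooled order was not that of most autosomes. Introns under 10 kb held 29.2 members per Mb and those of 200 to 1500 kb 16.1. Introns of 1500 kb or more held 58.9 per Mb, all of it in the wide spans of Gm20388 and Fgfr2. These values are descriptions, and the gene's GC content was not held constant.

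A CTCF motif was scored within 50 bp of each summit at a per-position p of 1e-05. It was present at 3703 members (63.1%, 95% Wilson interval 61.9 to 64.3), against 64.6% of all autosomal optimal peaks and 70.9% of intronic peaks in shorter genes. The share was lower than in shorter genes in 19 of 19 autosomes, with a mean difference of −7.87 ± 3.20 percentage points (exact sign-flip test, p = 3.81e-06, adjusted p = 1.91e-05). Of the windows of the same size 1 kb to either side of the members, 1.16% had such a match. The share depended on signal. It was 36.4% in the weakest 10% of signal and 94.3% in the strongest, against 49.4% and 94.5% among intronic peaks of shorter genes. In the next weakest 10% the shares were 40.5% and 55.2%. From the 20th to the 30th percentile of signal they were 54.9% and 58.6%, and from the 30th to the 40th 58.2% and 66.1%. From the 80th to the 90th they were 83.9% and 89.8%. The gap to shorter genes was thus widest in the weakest 20% of signal and smallest in the strongest 10%. It did not narrow evenly between them.

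Signal was lower in members too, though less evenly. The median signal was 63.1 (quartiles 36.5 and 169, range 7.43 to 584), against 73.9 in shorter genes and 76.2 over all autosomal peaks. As a percentile among all autosomal peaks the median was 44.1 against 49.1 in shorter genes, with a mean difference of −4.24 ± 4.06 and lower in 17 of 19 autosomes (exact sign-flip test, p = 4.58e-04, adjusted p = 9.16e-04). Against genes of 100 to 300 kb alone the difference was −1.75 and did not pass (exact sign-flip test, adjusted p = 0.124). Among peaks with a motif the median percentile was 55.2 in members and 57.1 in shorter genes, with a mean difference of −0.516 ± 6.04, and among peaks without one 29.7 and 31.6, with a mean difference of −2.73 ± 5.32. Each of these 2 differences was lower for members in 12 autosomes and higher in 7, and neither was tested. The top 10% of signal held 453 members (7.72%) and 9.07% of intronic peaks in shorter genes, and 257 of the 541 long genes had at least 1 such member.

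Fewer members than intronic peaks of shorter genes lay in repeats, while their share was near that of all peaks. The summit was in a masked repeat for 20.7% of members, 21.1% of all autosomal optimal peaks, 22.4% of peaks outside all genes and 28.9% of intronic peaks in shorter genes. Against the last of these it was lower in 18 of 19 autosomes with a mean difference of −9.10 ± 4.18 percentage points (exact sign-flip test, p = 7.63e-06, adjusted p = 2.54e-05). Of the eligible sequence itself, 27.9 to 29.2% was masked in the 3 classes of 300 kb or more. In the classes of shorter genes it was 26.9% under 10 kb, 31.0% from 10 to 30 kb, 30.5% from 30 to 100 kb and 27.9% from 100 to 300 kb. The GC content of the sequence within 50 bp of the summit had a median of 50.5% in both groups of peaks when autosomes were pooled. Within autosomes the difference in median was −0.990 ± 0.933 percentage points, lower for members in 14, higher in 1 and equal in the others (exact sign-flip test, p = 6.71e-04, adjusted p = 0.00112). The eligible sequence of the long genes as a whole was 40.8% GC, well below its summits.

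The direction of the motif did not follow that of the gene. Of 3702 motifs in members with 1 gene strand, 1833 (49.5%, 95% Wilson interval 47.9 to 51.1) were on the strand of the gene. The mean difference from an even split was −0.614 ± 3.68 percentage points over the autosomes and did not pass (exact sign-flip test, p = 0.474, adjusted p = 0.474). Single genes departed from it in both directions. Lsamp had 11 of 16 motifs on its own strand, Ksr2 16 of 20 and Cacna1e 1 of 7. These genes were named for strong members, and the departure was not tested in any of them.

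Neighbouring members with a motif formed 3200 pairs within genes. Of these, 771 (24.1%) were convergent, 734 (22.9%) divergent and 53.0% on the same strand. Along a gene, convergent and divergent pairs must alternate, so their numbers can differ by at most 1 in any gene. Near equality of the totals was thus fixed in advance. The difference tested rests on whether the first and last motif of each gene face each other or face away. The excess of convergent over divergent pairs was 1.51 ± 3.02 percentage points over the autosomes, higher in 14 and lower in 4, and did not pass after adjustment (exact sign-flip test, p = 0.0364, adjusted p = 0.0521). It passed under 4 of the alternatives tried, among them replicate 1 alone and the set without the 5 wide spans, and it turned to −1.74 in the stronger 50% of peaks (exact sign-flip test, adjusted p = 0.272). Consecutive members lay a median of 19.5 kb apart (quartiles 6.60 and 51.9). Among motif pairs the median distance was 35.7 kb for convergent, 24.1 kb for divergent and 28.8 kb for same-strand ones.

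The balance differed with distance, in a split made after the values were seen and given without a test. At 5 to 20 kb, 19.8% of 833 pairs were convergent and 27.5% divergent. At 20 to 50 kb the shares were 24.2% and 22.9%, and at 100 kb or more 30.8% and 17.9% of 588 pairs. Over the autosomes the difference was −5.55 ± 6.52 percentage points under 20 kb, lower in 15 and higher in 3, and 12.3 ± 13.0 at 100 kb or more, higher in 15 and lower in 3. Because convergent and divergent pairs alternate along a gene, their totals are kept nearly equal. An excess of convergent pairs at long distances thus largely entails an excess of divergent pairs at shorter ones, so these differences are not independent. The share of same-strand pairs stayed between 51.4% and 54.9% at every distance.

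**Figure D5:**
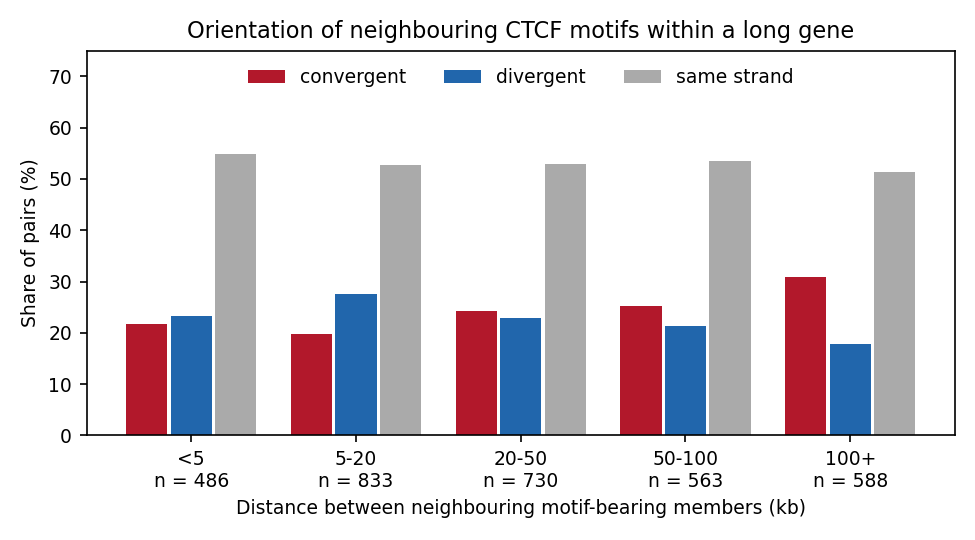
Share in percent (y axis) of neighbouring motif-bearing members of a gene that were convergent (red), divergent (blue) or on the same strand (grey), by the distance between them in kb (x axis), with the number of pairs below each class. Convergent pairs made up 19.8% at 5 to 20 kb and 30.8% at 100 kb or more, and divergent pairs 27.5% and 17.9%.

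Most members were seen in both replicates. The optimal list was itself drawn from the replicate lists with an IDR threshold, which favours peaks seen in both. A summit within 100 bp was among the strongest peaks of both replicates for 4791 members (81.6%), against 82.7% of all autosomal optimal peaks and 82.6% of intronic peaks in shorter genes. That last difference was −0.952 ± 2.46 percentage points over autosomes and did not pass (exact sign-flip test, p = 0.109, adjusted p = 0.137). In the whole replicate lists, which include many weak peaks, 5791 members (98.7%) had a counterpart in both. Over these the signal values had a Spearman correlation of 0.929, against 0.946 for intronic peaks in shorter genes. After the overall offset between the libraries was removed, the log2 ratio of replicate 1 to replicate 2 had an SD of 0.47 over members, and 94.1% lay within 2-fold. Of the members, 5067 (86.3%) had the same summit in the conservative list, close to the 86.9% of all autosomal peaks.

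The members most unequal between the replicates were of middling strength in one and weak in the other. In Robo1, an axon guidance receptor gene, a member had a signal of 45.5 in replicate 1 and 10.1 in replicate 2, which are percentiles of 50.9 and 8.19. Members of Cdk14, Hydin and Atxn1 (2 of them) were also higher in replicate 1. The reverse was seen in Tmem132d, where a member had 9.85 in replicate 1 and 27.1 in replicate 2, percentiles of 1.78 and 43.4, and in Rora, Nebl, Iqschfp and Smyd3. The highest percentile that any of the 10 reached in either replicate was 50.9.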

How the data were processed

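The 5 deposited peak lists of 2 libraries in 1 group were used, on mm10 per the labels. Per the deposited text notes, peaks were called for each replicate and for both together against a control alignment, and these lists gave the optimal and the conservative IDR list. The peak caller is not given in the sources used here, and the same holds for the aligner and the IDR threshold. Each list holds the authors' signal value per peak, on a scale that is not stated, so values were ranked within a list.

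Genes were taken from GENCODE vM21, sequence and repeat masking from GRCm38.p6. Eligible sequence is the sequence on which a summit would meet the rule, assembly gaps removed. Shorter genes mean protein-coding genes under 300 kb, at positions outside every long gene. The 20 bp CTCF weight matrix for even-numbered autosomes was learned on the 2000 strongest peaks of odd-numbered ones, and the reverse. Differences are means over autosomes of the difference within each autosome, and the statistics were tested on simulated data. Python 3.11.15 with numpy 2.4.6, pandas 2.3.3 and scipy 1.17.1 was used.

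Named genes are the 10 longest, the 10 with most members, the 5 highest and 5 lowest per Mb among those with at least 200 kb eligible, those of the 10 strongest and the 10 most unequal members, and of each of 12 lists up to 4 with most members and 2 with fewest per Mb. Not all of them are printed, and a few are not reported here. The lists held 171 symbols, of which 150 are long genes. Members and lists were chosen with earlier results of these data known. Alternatives changed the peak list, replicate, gene length, distance from starts, motif threshold, overlap, comparison genes and matching distance.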

Additional observations from a re-analysis of the deposited data

How the results depend on the processing

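Of 113 alternative values, 98 kept the direction and the side of the threshold of the main value, or a count within 1.5 times of it. Density, motif share, repeat share and summit GC content kept both under every alternative run on them, with log2 density ratios from −0.98 to −0.23 and motif share differences from −8.49 to −2.80 percentage points. The number of members was 2600 in the stronger 50% of peaks and 3214 in genes of 500 kb or more. The difference in signal percentile was −1.52 in the stronger 50% of peaks, −3.10 for genes of 500 kb or more and −1.75 against genes of 100 to 300 kb, none past the threshold. The first of the 5 parts of the body reversed to −0.07 more than 5 kb from starts and passed at 0.24 as the first 50 kb. The last part was 0.19 in genes of 500 kb or more and no longer passed. Convergent pairs passed at 1.19 in the conservative list, 1.25 for genes of 200 kb or more and 1.59 without the 5 wide spans, reversed to −1.74 in the stronger 50% of peaks, and ranged from 1.07 to 1.93 with 1 replicate left out, past the threshold without replicate 2. The share found in both replicates passed at −1.46 for genes of 200 kb or more and reversed to 0.152 against genes of 100 to 300 kb. The cause of these changes was not tested. Some of the alternatives also held fewer peaks or genes. Leaving out the wide spans and the GC classes were chosen after seeing the data. Where overlap with other genes was left out, long genes lost all positions under any gene that is not itself a long gene. Shorter genes lost only positions under genes that are not protein-coding, so the 2 sides were not treated alike. Leaving out a replicate also drops the IDR threshold. No paired analysis was possible because there is only 1 group. What depth limits could not be measured from peak lists.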
